A study of Mus musculus with 426 samples.

Results

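The 40 genes described here are a set of cell cycle and mitosis genes, chosen by symbol from the RNA table of a mouse pancreatic tumour study, in which all 40 were present among 24424 genes. They were read in single cells by GTO-seq, in which RNA (by SMART-Seq2) and DNA (by the SeqXE kit) of a sorted cell are amplified in the same tube and sequenced together. Male C57BL/6 mice, 6 to 8 weeks old, had 50000 KPC1199-EGFP cells placed orthotopically in the pancreas, and tumours grew for 6 to 8 weeks. KPC1199-EGFP is a mouse pancreatic cancer line that carries green fluorescent protein, so every tumour described here derives from 1 line. Live cells (Calcien Violet) of dissociated primary tumours were sorted as CD45+ (56 cells used, 3 mice), EpCAM+ (25 cells, 3 mice) and GFP+EpCAM+ (31 cells, 3 mice). GFP+ cells came from metastases of the peritoneum (85 cells, 3 mice), kidney (44 cells, mice 2 and 3), liver (16 cells, mice 2 and 3) and spleen (35 cells, mice 2 and 3). GFP+ cells of the primary tumour (76 cells, 3 mice) are the group against which the others were set.

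Of 418 cells, 368 had at least 500 detected genes and 10000 RNA counts and were used, with 10805 to 17845616 counts each. Libraries that stood apart were those of liver, where the sum of mouse 3 held 535652 counts and 1 cell gave 75.3% of the sum of mouse 2. In the EpCAM+ sort 1 cell gave 63.2% of the sum of mouse 2. Of the peritoneum libraries of mouse 1, 2 pairs differed in DNA counts by less than the sampling noise and were counted as 1 cell each. The CD45+ and EpCAM sorts of the primary tumour carried the markers of their gates: Ptprc, which encodes CD45, averaged 333 CPM in CD45+ cells, against 1.47 CPM in GFP+ cells of the primary tumour. The CD45+ sum of mouse 2 also held epithelial transcripts, with Krt19 at 352 CPM and Epcam at 70.6 CPM, where the other CD45+ sums had 4.50 and 11.2 CPM of Krt19 and 9.53 and 16.9 CPM of Epcam. Epcam averaged 1051 CPM in EpCAM+, 936 CPM in GFP+EpCAM+ and 16.7 CPM in GFP+ cells of the primary tumour, where a list of 12 fibroblast genes summed to 3199 to 18067 CPM per mouse and a list of 12 epithelial genes to 781 to 9405 CPM. Among the metastases Ptprc had 0.235 and 44.7 CPM in kidney of mice 2 and 3, and Epcam had 1465, 0.490 and 2.78 CPM in peritoneum. The part of these markers in the comparisons of kidney and peritoneum was not tested. CPM, counts scaled to the total of the cell or sum, is the unit of all levels.

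A cell that divides copies its DNA in S phase and separates it in mitosis. Cyclin E with its kinase and E2F transcription factors open S phase, licensing factors load the MCM helicase on origins, and nucleotide enzymes supply the copying machinery. Cyclin A and cyclin B with Cdk1, the Polo and Aurora kinases, the spindle checkpoint and the anaphase-promoting complex then carry the cell through mitosis. The transcripts of these machines are made in waves, one before S phase and one in G2 and M, and the DREAM and MuvB complexes bind a promoter element named CHR in the genes of the later wave. The 40 genes were read here as 15 G1/S members and 25 G2/M members. The G1/S members are the cyclins Ccne1 and Ccne2, the licensing and fork genes Cdc6, Mcm2 to Mcm7, Gins2 and Pcna, and the nucleotide enzymes Tk1, Tyms, Rrm1 and Rrm2. The G2/M members are the chromosome proteins Mki67 and Top2a, the kinases and cyclins Cdk1, Ccna2, Ccnb1, Ccnb2, Plk1, Aurka and Aurkb, the checkpoint and anaphase genes Bub1, Bub1b, Ttk, Mad2l1, Cdc20 and Ube2c, the centromere genes Cenpa, Cenpe, Cenpf and Birc5, and the spindle genes Kif11, Kif23, Tpx2, Nusap1, Prc1 and Hmmr.

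Promoters show how the members of these waves differ in sequence, independently of any count. RefSeq promoters (build GRCm38.p6, which is not the mm9 build named for the counts) were matched by symbol for 34 of the 40 members; Aurkb, Ccna2, Mcm4, Tpx2, Gins2 and Ccne2 had no entry. A pair of G2/M promoters and a pair of G1/S promoters are shown as examples, with the 200 bases before the start of the gene read along the gene's own strand. Capitals mark a CHR, a CCAAT box or an E2F site, each searched on both strands. The CHR was searched by the letters TTTGAA, and also by the letters TTCGAA. The CCAAT box was searched by those letters and the E2F site by TTTCCCGC, TTTCGCGC, TTTGCCGC and TTTGGCGC. Ccnb1 lies at chr13:100786487-100786686 on the minus strand, Cdc20 at chr4:118437344-118437543 on the minus strand, Mcm5 at chr8:75109309-75109508 on the plus strand and Rrm2 at chr12:24708054-24708253 on the plus strand.
Cdc20: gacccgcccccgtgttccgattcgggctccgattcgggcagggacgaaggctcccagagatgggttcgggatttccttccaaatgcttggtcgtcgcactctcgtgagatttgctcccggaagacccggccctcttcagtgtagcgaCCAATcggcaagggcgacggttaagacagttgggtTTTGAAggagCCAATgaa
Ccnb1: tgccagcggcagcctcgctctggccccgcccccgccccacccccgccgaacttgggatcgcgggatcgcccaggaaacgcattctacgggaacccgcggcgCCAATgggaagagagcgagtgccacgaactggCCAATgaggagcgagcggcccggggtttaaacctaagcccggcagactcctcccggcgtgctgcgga
Mcm5: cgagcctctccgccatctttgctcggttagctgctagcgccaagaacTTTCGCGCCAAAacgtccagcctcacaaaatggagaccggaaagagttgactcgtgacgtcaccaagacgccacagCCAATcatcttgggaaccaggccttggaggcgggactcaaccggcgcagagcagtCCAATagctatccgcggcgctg
Rrm2: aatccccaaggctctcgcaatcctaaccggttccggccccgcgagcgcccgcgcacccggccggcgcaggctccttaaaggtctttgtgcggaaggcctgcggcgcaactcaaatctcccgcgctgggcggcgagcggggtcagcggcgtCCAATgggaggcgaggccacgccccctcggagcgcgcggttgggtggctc
Cdc20, the activator of the anaphase-promoting complex, held a CHR that begins 18 bases before the start and a CCAAT box on either side of it. Ccnb1, cyclin B1, held a pair of CCAAT boxes and none of the CHR letters in this window. Mcm5, a subunit of the MCM helicase, held E2F letters that begin 153 and 149 bases before the start and overlap each other. Rrm2, the small subunit of ribonucleotide reductase, held 1 CCAAT box and none of the E2F letters.

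Over the whole window of 250 bases before to 50 after the start, a CHR stood in 17 of 22 G2/M promoters (77.3%) and in 1 of 12 G1/S promoters (8.33%, Mcm2), while 19.4% of 27025 mouse promoters held it. All 17 G2/M promoters with a CHR also held a CCAAT box; 7.57% of all promoters held both. The G2/M promoters without a CHR were those of Ccnb1, Cenpe, Birc5, Mad2l1 and Nusap1. An E2F site stood in the promoters of Cdc6, Mcm3, Mcm5 and Mcm6 (33.3% of G1/S promoters) and of Cdk1 (4.55% of G2/M promoters), against 2.34% of all promoters. A match of letters is a description of the sequence and does not show that a factor binds there.

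**Figure D1:**
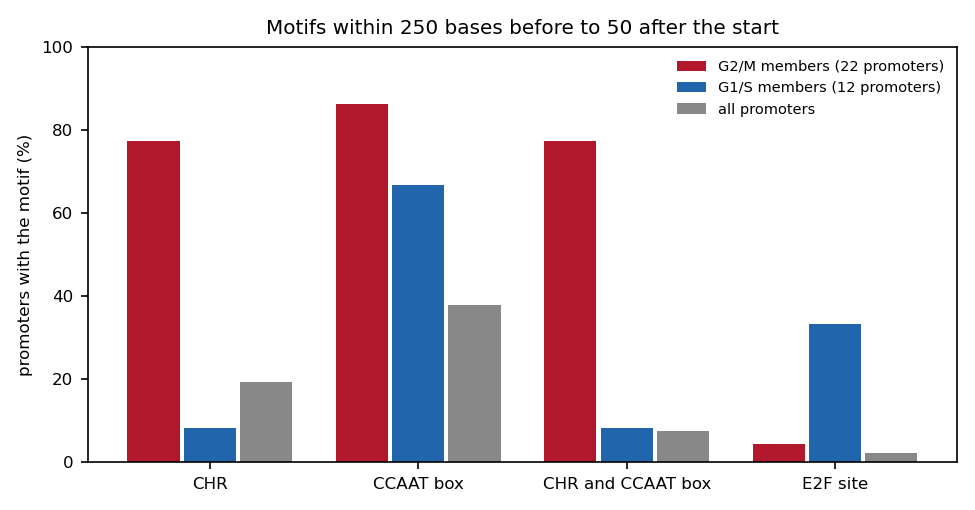
Share of promoters (%, vertical axis) that hold a CHR, a CCAAT box, both, or an E2F site within 250 bases before to 50 after the start, for 22 G2/M members, 12 G1/S members and all 27025 mouse promoters. The CHR bars stand at 77.3%, 8.33% and 19.4%.

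Single cells were compared at 1 depth by drawing 50000 counts from each of 325 cells, which left out 43 shallower cells (10 of the GFP+ primary cells, 7 of 16 in liver). A median of 4 G2/M members of 25 had a count per CD45+ cell, 6.5 per EpCAM+ cell and 1 per GFP+EpCAM+ cell, against 6 per GFP+ primary cell. In metastases the median was 13 in spleen, 11 in kidney, 9 in peritoneum and 7 in liver. For the 15 G1/S members the medians were 2.5 in CD45+, 6 in EpCAM+ and 2 in GFP+EpCAM+ cells, 9 in spleen, 8 in kidney and 6 in both peritoneum and liver, against 5 in GFP+ primary cells. Over the cells of all mice together, spleen and kidney thus had the highest medians of both sets and GFP+EpCAM+ cells the lowest. By mouse the G2/M medians were 14 and 12 in spleen, 7 and 15 in kidney and 9.5, 7.5 and 9 in peritoneum. They were 1, 0.5 and 2 in GFP+EpCAM+ cells and 6, 2 and 2.5 in CD45+ cells, against 4, 8.5 and 8 in GFP+ primary cells. Kidney of mouse 2 thus lay within the range of the GFP+ primary cells. Without thinning the G2/M medians were higher, 15 in GFP+EpCAM+ and 17 in GFP+ primary cells. Over 1125 olfactory receptor genes, which these cells should not use, an average of 1.19% of genes had a count per thinned GFP+EpCAM+ cell, 6.38% per CD45+ cell, 6.00% per EpCAM+ cell and 2.83% per GFP+ primary cell, and 4.48% to 8.00% in the metastases.

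Among the thinned cells, those with 13 or more of the 25 G2/M members made up 7 of 52 CD45+ cells (13.5%), 5 of 24 EpCAM+ cells (20.8%) and 4 of 29 GFP+EpCAM+ cells (13.8%), against 18 of 66 GFP+ primary cells (27.3%). They made up 28 of 77 cells in peritoneum (36.4%), 17 of 37 in kidney (45.9%) and 16 of 31 in spleen (51.6%). In liver there were 0 of the 9 cells deep enough to thin, which allows a share of up to 33.3%. Of the 7 shallower liver cells left out, 4 held 17 to 20 of the 25 G2/M members at 15352 to 35340 counts, so liver did hold cells with many members. Shallower cells with 13 or more members also numbered 3 of 10 in GFP+ primary cells, 4 of 8 in peritoneum, 2 of 4 in spleen, 1 of 7 in kidney and 1 of 2 in GFP+EpCAM+ cells. Without thinning 8 of 16 liver cells (50%) held 13 or more, against 57 of 76 GFP+ primary cells (75%). By mouse the shares were 24% (6 of 25 cells), 35.7% (5 of 14) and 25.9% (7 of 27) in GFP+ primary cells. CD45+ cells had 23.8% (5 of 21), 11.8% (2 of 17) and 0% (0 of 14). In CD45+ cells of mouse 1 an average of 10.7% of the olfactory receptor genes had a count, against 4.43% in GFP+ primary cells of mouse 1. The part of this background was not tested. The shares of EpCAM+ cells, 9.09%, 28.6% and 33.3%, overlapped with those of GFP+ primary cells. GFP+EpCAM+ cells had 8.33% (1 of 12), 12.5% (1 of 8) and 22.2% (2 of 9). The CD45+ and GFP+EpCAM+ shares lay below those of GFP+ primary cells, but they rest on few cells per mouse. The shares were 30.6%, 35% and 47.6% in peritoneum, 33.3% and 57.9% in kidney, and 53.3% and 50.0% in spleen. Spleen lay above every GFP+ primary share, and peritoneum and kidney overlapped with mouse 2 of the GFP+ primary cells. In mouse 3 the olfactory receptor genes with a count averaged 7.79% in spleen, 6.62% in kidney and 4.92% in peritoneum, against 0.573% in GFP+ primary cells. In mouse 2 they averaged 0.954%, 3.64% and 2.30%, against 4.30%. The part of this background in the shares of the metastases was not tested. At the other end 9 of 29 GFP+EpCAM+ cells (31%) had no G2/M member, against 3 of 66 GFP+ primary cells (4.55%).

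**Figure D2:**
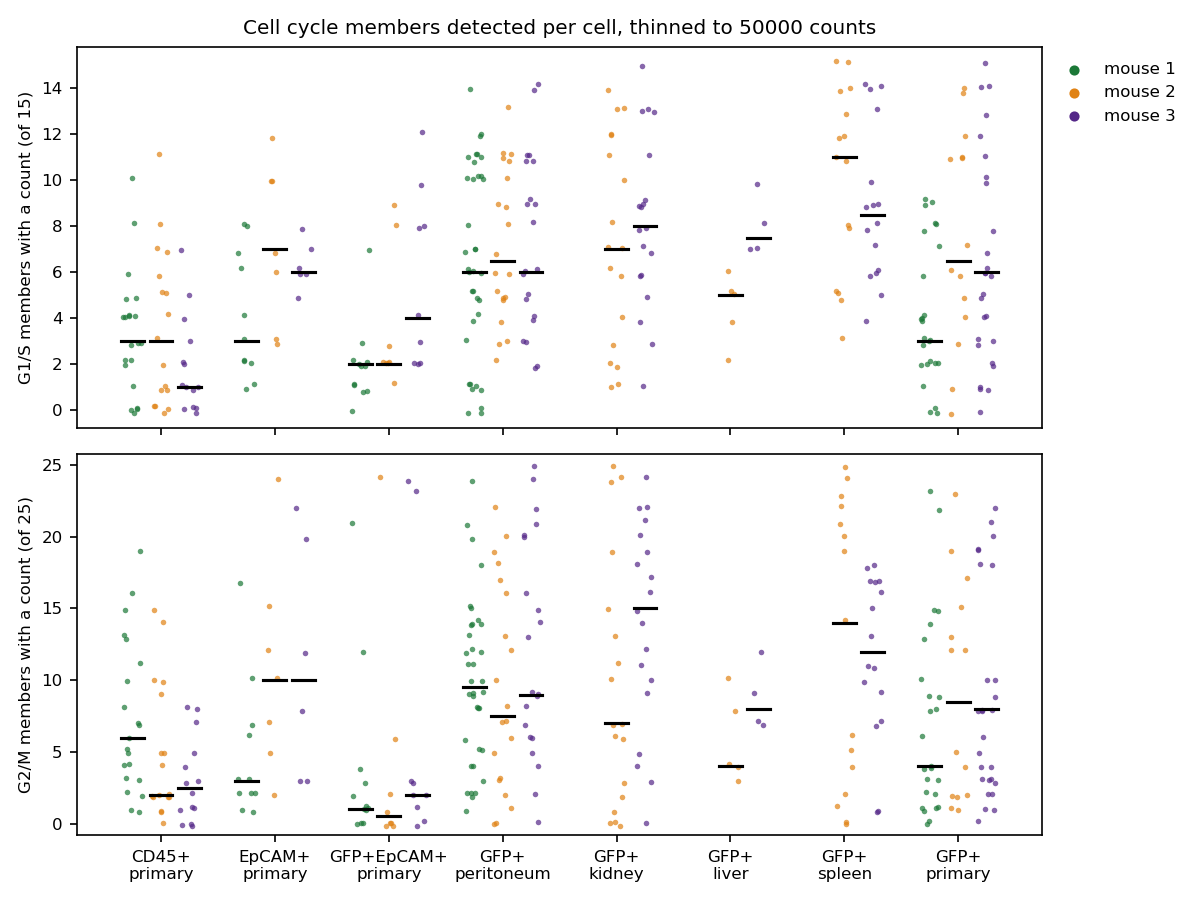
Number of G1/S members (of 15, above) and G2/M members (of 25, below) with a count in each cell, thinned to 50000 counts. Each point is a cell, colours are mice, and black lines are the medians per mouse. GFP+EpCAM+ cells crowd at the bottom with 4 cells at 13 or more G2/M members, and spleen has 16 such cells.

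Among the thinned cells Cdc6, which loads the MCM helicase on origins, had a count in 0 of 29 GFP+EpCAM+ cells, which allows a share of up to 10.3% at this depth, against 45.5% of GFP+ primary cells. Without thinning it had a count in 14 of 31 GFP+EpCAM+ cells (45.2%), against 57 of 76 GFP+ primary cells (75%), so low counts of it were present in GFP+EpCAM+ cells. Mcm6, a helicase subunit, had a count in 28.8% of CD45+, 70.8% of EpCAM+ and 58.6% of GFP+EpCAM+ cells, against 66.7% of GFP+ primary cells. Its share was 70.1% in peritoneum, 78.4% in kidney and 93.5% in spleen. Mki67, the Ki-67 protein of dividing cells, had a count in 59.6% of CD45+, 50.0% of EpCAM+ and 17.2% of GFP+EpCAM+ cells, against 43.9% of GFP+ primary cells. So CD45+ cells had Mki67 counts in a larger share of cells than the GFP+ primary cells and Mcm6 counts in a smaller one. Olfactory receptor genes also had a count more often in thinned CD45+ cells, at 6.38% against 2.83% in GFP+ primary cells. The part of this background in the Mki67 share was not tested, and the sums of Mki67 overlapped between these groups. Birc5, the survivin subunit of the chromosomal passenger complex, had a count in 68.8% of peritoneum, 75.7% of kidney, 66.7% of liver and 74.2% of spleen cells, against 57.6% of GFP+ primary cells.

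The levels of the sets over single cells spanned several orders of magnitude. The G2/M members summed to a median of 158 CPM per CD45+ cell, 444 CPM per EpCAM+ cell and 35.1 CPM per GFP+EpCAM+ cell, against 771 CPM per GFP+ primary cell. The same median was 894 CPM in spleen, 544 CPM in liver, 1382 CPM in kidney and 1206 CPM in peritoneum. The G1/S members had medians of 92.6 CPM in CD45+, 477 CPM in EpCAM+ and 370.0 CPM in GFP+EpCAM+ cells, against 829 CPM in GFP+ primary cells, and of 704 CPM in kidney to 1605 CPM in spleen. The cell with the highest G2/M level, of the kidney of mouse 2, had 40416 CPM, of which Cenpe, a kinesin of the kinetochore, gave 18800 CPM, Birc5 12600 CPM and Ube2c 5130 CPM. A spleen cell of mouse 2 had 23416 CPM spread over all 25 G2/M members, led by Tpx2 at 2390 CPM. A GFP+ primary cell of mouse 1 had 27167 CPM, of which Kif23, a kinesin of the central spindle, gave 26200 CPM, in a library of 13546 counts. High sums of the set were thus reached both with most members and with 1 to 3 of them.

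Cells also differed in which wave they held. CD45+ cell 82 of mouse 3 had 6428 CPM of G1/S members, led by Mcm3 at 2230 CPM, Mcm7 at 2100 CPM and Mcm5 at 1150 CPM, and 4.1 CPM of G2/M members. CD45+ cell 25 of mouse 2 had 6357 CPM of G1/S and 6550 CPM of G2/M members. Counting a thinned cell as high at 5 G1/S members and at 9 G2/M members, the GFP+ primary cells held 20 cells high in both sets, 14 in G1/S alone, 6 in G2/M alone and 26 in neither. GFP+EpCAM+ cells held 4, 3, 1 and 21 such cells, CD45+ cells 9, 5, 3 and 35, and EpCAM+ cells 9, 6, 0 and 9. In metastases the same 4 counts were 20, 9, 0 and 2 in spleen, 3, 4, 0 and 2 over the 9 thinned cells of liver, 20, 8, 3 and 6 in kidney, and 40, 16, 4 and 17 in peritoneum. Cells high in G2/M alone were thus few in every group. These are ranges of a score, with 18 GFP+ primary cells and 25 peritoneum cells close to a limit.

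**Figure D3:**
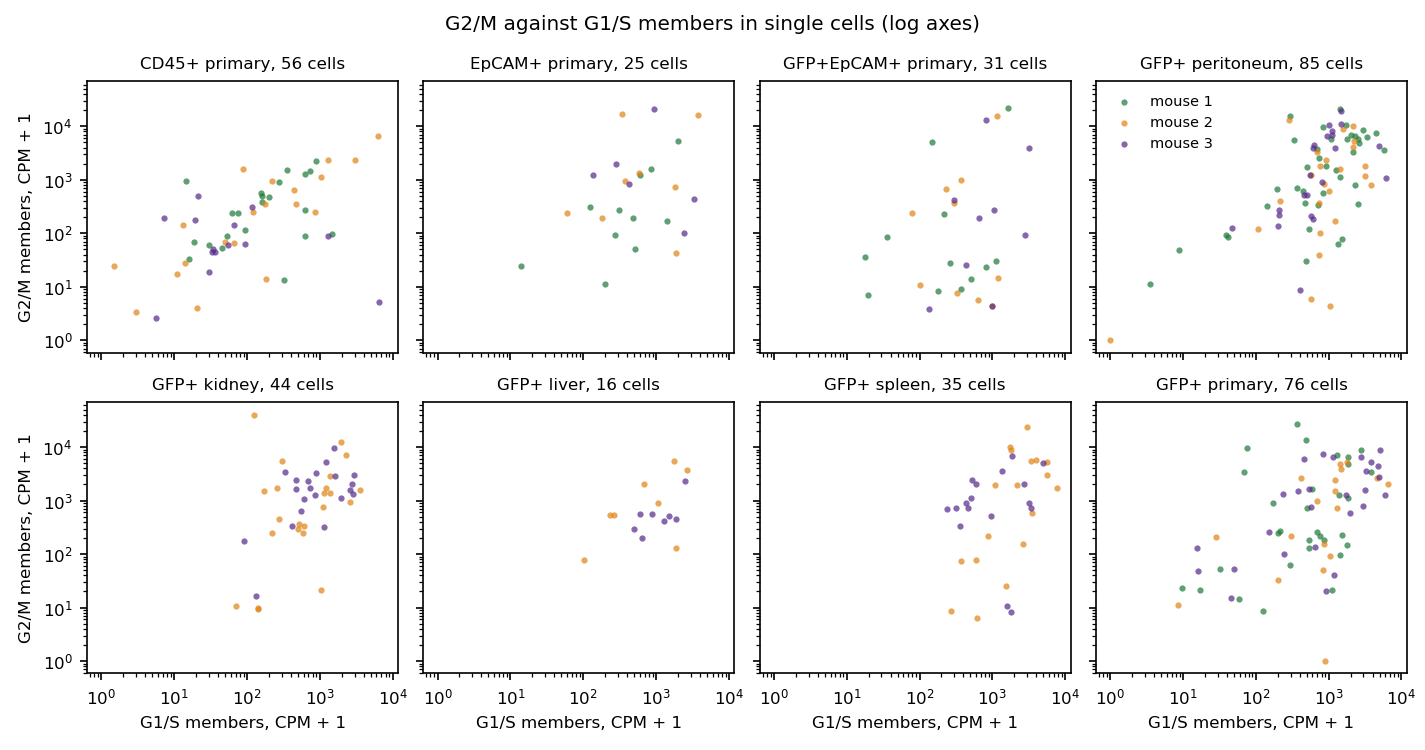
G2/M level against G1/S level (CPM + 1, log axes) in each of the 368 cells, 1 panel per group, colours for mice. CD45+ cells centre at 92.6 CPM of G1/S and 158 CPM of G2/M members, and GFP+ primary cells at 829 and 771 CPM.

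Summed over the cells of a mouse, the G2/M members had 192, 873 and 116 CPM in CD45+ cells, 572, 1131 and 7279 CPM in EpCAM+ cells and 3063, 225 and 2292 CPM in GFP+EpCAM+ cells, against 2005, 1346 and 2774 CPM in GFP+ primary cells. Every CD45+ sum lay below every GFP+ sum, and the EpCAM+ and GFP+EpCAM+ sums overlapped with them. Single cells carried much of these sums. In EpCAM+ mouse 3, 95.8% of the G2/M counts came from 1 cell, in GFP+EpCAM+ cells 91.3%, 83.4% and 54.01% did in the 3 mice, and in GFP+ primary cells of mouse 2, the lowest GFP+ sum, 76.3% did. Without the top cell of each sum, a setting chosen after the values were seen, the G2/M members had 140, 471 and 79.3 CPM in CD45+ cells, 367, 445 and 456 CPM in EpCAM+ cells and 305, 37.9 and 1163 CPM in GFP+EpCAM+ cells, against 1149, 396 and 2405 CPM in GFP+ primary cells. The CD45+ and GFP+ sums then overlapped. For a single member in a single sum, the top cell gave a median of 57.6% of the counts (838 sums with a count). The CD45+ sum of mouse 2, the highest of the 3, was also the one with the epithelial transcripts, where 12 epithelial genes summed to 2338 CPM and to 122 and 313 CPM in the other CD45+ mice; their part in the sum was not tested. Its top cell, cell 25, gave 49.6% of the G2/M counts. That cell had 788 CPM of Ptprc, 7.58 CPM of Krt19, 32.4 CPM of Epcam and 194 CPM of the 12 epithelial genes. The G1/S members had 453, 946 and 959.6 CPM in CD45+, 618, 1409 and 2242 CPM in EpCAM+ and 483, 722 and 1431 CPM in GFP+EpCAM+ cells, against 706, 1428 and 1912 CPM in GFP+ primary cells. In CD45+ mouse 3, 89.4% of the G1/S counts came from cell 82, which had 2.06 CPM of Ptprc and 10124 CPM of a list of leukocyte genes.

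In metastases the G2/M members summed to 4267, 2009 and 5778 CPM in peritoneum, 4150.1 and 2825 CPM in kidney, 288 and 562 CPM in liver and 2971 and 1122 CPM in spleen, against 2005, 1346 and 2774 CPM in the primary tumour. Both liver sums lay below every primary sum, both kidney sums lay above, and peritoneum and spleen overlapped. These orders rested on single cells, which gave 42.3% and 67.7% of the G2/M counts in kidney, 43.2% and 29.9% in liver and 68.7% and 53.7% in spleen. Without the top cell of each sum they had 3398, 1539 and 3712 CPM in peritoneum, 2503 and 1138 CPM in kidney, 190.4 and 565 CPM in liver and 1020 and 571 CPM in spleen, against 1149, 396 and 2405 CPM in the primary tumour. Each of the 4 sites then overlapped with the primary tumour. In liver the overlap was with the primary sum of mouse 2, which went from 1346 to 396 CPM. The liver sums went from 288 and 562 CPM to 190.4 and 565 CPM. The G1/S members summed to 1605, 1926 and 1461 CPM in peritoneum, 1168 and 1233 CPM in kidney, 1581 and 1163 CPM in liver and 1990.3 and 1805 CPM in spleen, against 706, 1428 and 1912 CPM in the primary tumour. In liver the G2/M sums, and not the G1/S sums, lay outside the range of the primary tumour. Where each cell counted alike, the G2/M mean over liver cells was 667 and 1691 CPM, against 1532 to 2994 CPM over GFP+ primary cells, so that these overlapped. Fewer cells in a phase and less RNA per cell cannot be told apart in a sum.

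**Figure D4:**
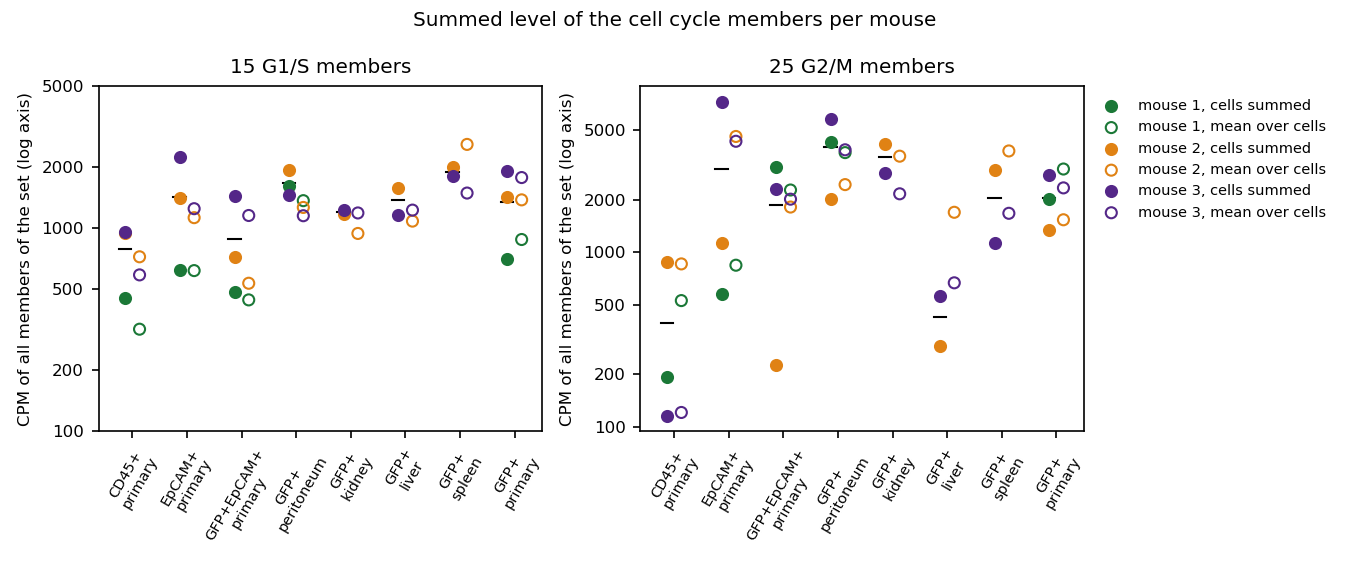
Level of all 15 G1/S members (left) and all 25 G2/M members (right) in CPM on a log axis for each mouse. Filled points are the sum over cells with their mean as a line, open points the mean over cells, colours are mice. The liver G2/M sums are 288 and 562 CPM, and the GFP+ primary sums 1346 to 2774 CPM.

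Among the licensing and fork genes of the primary tumour, Mcm5 had 3.83, 119 and 156 CPM in CD45+ cells, 1.97, 171 and 131 CPM in EpCAM+ cells and 0.824, 2.94 and 94.3 CPM in GFP+EpCAM+ cells, against 4.604, 188 and 103 CPM in GFP+ cells. Mcm6 had 5.98, 29.6 and 8.52 CPM in CD45+ cells, 6.901, 254 and 1024 CPM in EpCAM+ cells and 67.7, 493 and 272 CPM in GFP+EpCAM+ cells, against 137, 189 and 383 CPM in GFP+ cells. Pcna, the sliding clamp of the replication fork, had 66.8, 36.6 and 21.3 CPM in CD45+ cells, 163, 19.9 and 25.4 CPM in EpCAM+ cells and 116, 74.1 and 23.3 CPM in GFP+EpCAM+ cells, against 102, 124 and 116 CPM in GFP+ cells. Mcm6 and Pcna were lower in every CD45+ sum than in any GFP+ sum, whereas Mcm5 overlapped in all sorts. Ccne1, cyclin E1, had 1.48, 147 and 0.825 CPM in CD45+ cells, 0.617, 0.647 and 3.12 CPM in EpCAM+ cells and 0.4497, 0.0358 and 60.7 CPM in GFP+EpCAM+ cells, against 0.992, 9.39 and 31.2 CPM in GFP+ cells. Ccne2, cyclin E2, had 1.49, 0.362 and 1.11 CPM in CD45+ cells, 1.57, 23.6 and 0.149 CPM in EpCAM+ cells and 0.225, 0.0358 and 0 CPM in GFP+EpCAM+ cells, against 0.549, 0.424 and 27.3 CPM in GFP+ cells, with 6, 1 and 0 counts in the GFP+EpCAM+ sums. In mouse 3 that 0 allows up to 0.134 CPM. Ccne2 was thus at or near 0 in GFP+EpCAM+ cells and varied over orders of magnitude among GFP+ cells themselves. Of the nucleotide enzymes, Tk1, thymidine kinase, had 0.479, 31.97 and 0.44 CPM in CD45+ cells, 1.31, 7.82 and 26.96 CPM in EpCAM+ cells and 0.749, 0.8601 and 28.5 CPM in GFP+EpCAM+ cells, against 25.4, 137 and 90.04 CPM in GFP+ cells. Rrm2 had 1.96, 179 and 1.76 CPM in CD45+ cells, 2.005, 57.9 and 2.16 CPM in EpCAM+ cells and 121, 5.73 and 422 CPM in GFP+EpCAM+ cells, against 72.4, 63.1 and 131 CPM in GFP+ cells. The sums of Tk1 overlapped between each of these sorts and GFP+ cells, whereas every EpCAM+ sum of Rrm2 lay below every GFP+ sum.

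Of the G2/M members, Mki67 had 21.7, 361 and 9.57 CPM in CD45+ cells, 6.86, 24.8 and 1732 CPM in EpCAM+ cells and 255, 12.7 and 12.6 CPM in GFP+EpCAM+ cells, against 51.4, 129 and 213 CPM in GFP+ cells. Top2a, the topoisomerase that untangles sister chromatids, had 2.92, 9.77 and 1.32 CPM in CD45+ cells, 3.32, 35.7 and 147 CPM in EpCAM+ cells and 84.8, 3.87 and 79.9 CPM in GFP+EpCAM+ cells, against 28.3, 82.8 and 98.7 CPM in GFP+ cells. All CD45+ sums of Top2a lay below all GFP+ sums, whereas Mki67 overlapped, with 1 high CD45+ mouse. Cdk1, the kinase that drives mitosis, had 2.49, 35.1 and 26.9 CPM in CD45+ cells, 53.5, 14.7 and 83.3 CPM in EpCAM+ cells and 32.2, 3.19 and 65.5 CPM in GFP+EpCAM+ cells, against 77.5, 24.3 and 47.2 CPM in GFP+ cells. Ccnb1 had 3.83, 5.12 and 0.88 CPM in CD45+ cells, 1.16, 20.2 and 229 CPM in EpCAM+ cells and 314, 9.07 and 86.7 CPM in GFP+EpCAM+ cells, against 44.01, 1.51 and 53.7 CPM in GFP+ cells. Cdc20 had 0.814, 3.17 and 0.55 CPM in CD45+ cells, 21.7, 237 and 198 CPM in EpCAM+ cells and 95.7, 29.1 and 206 CPM in GFP+EpCAM+ cells, against 81.3, 1.55 and 113 CPM in GFP+ cells. In mouse 2 the GFP+ sums of Ccnb1 and Cdc20 were as low as those of CD45+ cells. Ube2c, the ubiquitin-conjugating enzyme of the anaphase-promoting complex, had 1.77, 28.8 and 2.42 CPM in CD45+ cells, 0.541, 107 and 733 CPM in EpCAM+ cells and 221, 30.8 and 304 CPM in GFP+EpCAM+ cells, against 109.5, 95.03 and 239.5 CPM in GFP+ cells. Its CD45+ sums lay below all others of the primary tumour but the lowest EpCAM+ sum.

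The sums per mouse were tested over all genes with edgeR's quasi-likelihood test, in which the mouse is the replicate and p-values are adjusted by Benjamini-Hochberg over all 19703 genes tested. All 40 members passed the filter on low counts. Between CD45+ and GFP+ primary cells, 0 members of 40 passed an adjusted p of 0.05, where 0.817% of all genes did. At an unadjusted p of 0.05, 13 members were lower and none higher in CD45+ cells (17.3% of all genes passed), 11 of them G2/M members. DESeq2 called 7 members lower (11.2% of 17151 genes), all of them G2/M members: Aurkb, Ccna2, Cdc20, Cenpe, Kif23, Plk1 and Tpx2. Its shares are over the genes to which it gave an adjusted p, which differ between comparisons. The limma test on means of log2(CPM + 1) over cells called 4 lower (3.95% of all genes), all of them G1/S members: Mcm6, Pcna, Tk1 and Tyms. For 15 members (37.5%) every CD45+ sum lay below every GFP+ sum, as for 11.6% of all genes. The median log2 difference was -0.92 over the G1/S and -3.49 over the G2/M members, where that of all genes was 0.20. With cells counted alike it was -1.60 over the G1/S and -0.96 over the G2/M members. DESeq2 on the sums and limma on the means over cells thus called different members, where edgeR on the same sums called 0. Tool and scale differ together here. By role, all 7 kinases and cyclins (median -3.34), all 6 checkpoint and anaphase genes (-2.66), all 4 centromere genes (-3.46) and 5 of 6 spindle genes (-4.52) had negative differences. Of the 11 licensing and fork genes 6 were negative (median -0.92), as were all 4 nucleotide enzymes (-1.11).

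The lowest differences in CD45+ cells were those of Aurkb, the kinase of the chromosomal passenger complex, and Tpx2, a spindle factor that activates Aurora A. Aurkb had 3.93, 2.42 and 1.87 CPM in CD45+ cells, against 39.6, 217 and 229 CPM in GFP+ cells (fitted log2 difference of -6.18, SE 1.97, edgeR adjusted p = 0.122; lower in CD45+ cells in 3 of 3 mice). Tpx2 had 7.28, 1.699 and 1.93 CPM in CD45+ cells, against 231, 42.3 and 304 CPM in GFP+ cells (fitted log2 difference of -6.16, SE 1.69, edgeR adjusted p = 0.0793; lower in 3 of 3 mice). Neither passed the threshold. At the other end Mcm7, a helicase subunit, had 2.68, 4.37 and 282 CPM in CD45+ cells, against 2.83, 102 and 85.8 CPM in GFP+ cells (fitted log2 difference of 0.82, SE 1.80, edgeR adjusted p = 0.828), and Ccne1 had a fitted log2 difference of 1.996, SE 2.08, edgeR adjusted p = 0.637. The CD45+ value of Mcm7 in mouse 3 came almost wholly from cell 82, which gave 99.4% of it. The 12 leukocyte genes of the gate check summed to 12642 to 15364 CPM in CD45+ cells, against 156 to 716 CPM in GFP+ cells, and the 12 fibroblast genes to 82.5 to 249.4 CPM in CD45+ cells, against 3199 to 18067 CPM in GFP+ cells; their part in these differences was not tested.

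Between EpCAM+ and GFP+ primary cells 0 members passed edgeR's adjusted threshold (0% of all genes) and 2 were lower at an unadjusted p of 0.05, Cdc6 and Bub1 (11.5% of all genes). DESeq2 called Cdc6 alone (7.58% of 11481 genes) and limma called 0 members (0.0102% of all genes). Cdc6 had 1.16, 5.56 and 0.599 CPM in EpCAM+ cells, against 43.8, 51.2 and 162 CPM in GFP+ cells (fitted log2 difference of -5.57, SE 2.03, edgeR adjusted p = 0.343; lower in 3 of 3 mice). Bub1, a kinase of the spindle checkpoint, had 4.36, 1.88 and 1.08 CPM in EpCAM+ cells, against 24.3, 14.3 and 41.3 CPM in GFP+ cells (fitted log2 difference of -3.70, SE 1.80, edgeR adjusted p = 0.434; lower in 3 of 3 mice). Neither overlapped between the groups. The highest differences were those of Prc1, which bundles the microtubules of the central spindle, with 82.5, 34.3 and 373 CPM in EpCAM+ cells, against 14.7, 11.5 and 72.4 CPM in GFP+ cells (fitted log2 difference of 2.12, SE 1.58, edgeR adjusted p = 0.692), and of Mki67 (fitted log2 difference of 2.06, SE 1.68, edgeR adjusted p = 0.729). In mouse 3 a single cell gave 98.9% of the Prc1 and 99.4% of the Mki67 counts. Medians were -0.78 over the G1/S and 0.30 over the G2/M members, the last of which ran from -1.12 to 1.15 over the alternatives, and 0.07 over all genes. The 12 fibroblast genes summed to 32.3 to 499 CPM in EpCAM+ cells, against 3199 to 18067 CPM in GFP+ cells, and the 12 epithelial genes to 10286 to 21350 CPM in EpCAM+ cells, against 781 to 9405 CPM in GFP+ cells; their part was not tested.

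Between GFP+EpCAM+ and GFP+ primary cells 0 members passed edgeR's adjusted threshold (0% of all genes). Cdc6 and Ccne2 were lower at an unadjusted p of 0.05 (10.2% of all genes). DESeq2 called the same pair (6.65% of 12977 genes), and limma called 0 members (0.299% of all genes). Cdc6 had 1.499, 0.107 and 0.492 CPM in GFP+EpCAM+ cells, against 43.8, 51.2 and 162 CPM in GFP+ cells (fitted log2 difference of -6.64, SE 2.14, edgeR adjusted p = 0.275; lower in 3 of 3 mice). Ccne2 had a fitted log2 difference of -6.48, SE 2.20, edgeR adjusted p = 0.279, a value that depends on the small count edgeR adds to sums near 0. No GFP+EpCAM+ sum of either gene reached a GFP+ sum. The highest differences were those of Nusap1, a microtubule-bundling spindle protein, with 592, 7.84 and 109 CPM in GFP+EpCAM+ cells, against 46.7, 39.2 and 36.1 CPM in GFP+ cells (fitted log2 difference of 3.04, SE 1.75, edgeR adjusted p = 0.639), and of Ccnb1 (fitted log2 difference of 2.51, SE 1.75, edgeR adjusted p = 0.787). In mouse 1 a single cell gave 99.9% of the Nusap1 and 96.8% of the Ccnb1 counts. Medians were -0.95 over the G1/S and -0.13 over the G2/M members, the last of which ran from -1.39 to 0.37 over the alternatives, and -0.23 over all genes. The 12 fibroblast genes summed to 6.56 to 3820 CPM in GFP+EpCAM+ cells, against 3199 to 18067 CPM in GFP+ cells; their part was not tested.

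Between EpCAM+ and GFP+EpCAM+ cells 0 members passed edgeR's adjusted threshold (0% of all genes). At an unadjusted p of 0.05 Ccne2 was higher and Bub1 lower (13.7% of all genes). DESeq2 called the same pair (8.38% of 14109 genes), and limma called 0 members (0% of all genes). Ccne2 had 1.57, 23.6 and 0.149 CPM in EpCAM+ cells, against 0.225, 0.0358 and 0 CPM in GFP+EpCAM+ cells (fitted log2 difference of 5.69, SE 2.12, edgeR adjusted p = 0.287). Bub1 had 4.36, 1.88 and 1.08 CPM in EpCAM+ cells, against 15.96, 2.76 and 63.2 CPM in GFP+EpCAM+ cells (fitted log2 difference of -3.88, SE 1.81, edgeR adjusted p = 0.344). Both pairs of groups overlapped. Ccne1 had the lowest difference (fitted log2 difference of -3.96, SE 2.27, edgeR adjusted p = 0.437). Ccna2, cyclin A2, had the second highest, with 1.28, 27.2 and 430.4 CPM in EpCAM+ cells, against 1.05, 11.7 and 58.8 CPM in GFP+EpCAM+ cells (fitted log2 difference of 2.51, SE 1.71, edgeR adjusted p = 0.516). Medians were 0.77 over the G1/S and 0.10 over the G2/M members, and 0.30 over all genes; over the alternatives they ran from -0.14 to 1.15 and from -1.61 (without mouse 3) to 1.58.

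Between CD45+ and GFP+EpCAM+ cells 0 members passed edgeR's adjusted threshold, where 1.69% of all genes did. At an unadjusted p of 0.05, 14 members were lower and Cdc6 was higher in CD45+ cells (23.6% of all genes passed). DESeq2 called 12 members, Cdc6 higher and 11 lower (19.5% of 17914 genes), and limma called 0 members (4.14% of all genes). Cdc20 had 0.814, 3.17 and 0.55 CPM in CD45+ cells, against 95.7, 29.1 and 206 CPM in GFP+EpCAM+ cells (fitted log2 difference of -6.24, SE 1.90, edgeR adjusted p = 0.0718; lower in 3 of 3 mice). Tpx2 had 7.28, 1.699 and 1.93 CPM in CD45+ cells, against 266, 14.6 and 86.9 CPM in GFP+EpCAM+ cells (fitted log2 difference of -5.94, SE 1.68, edgeR adjusted p = 0.0607; lower in 3 of 3 mice). Cdc6 had 9.34, 108 and 2.25 CPM in CD45+ cells, against 1.499, 0.107 and 0.492 CPM in GFP+EpCAM+ cells (fitted log2 difference of 5.72, SE 2.05, edgeR adjusted p = 0.113; higher in 3 of 3 mice), and Mcm3, a helicase subunit, had 271, 38.7 and 299 CPM in CD45+ cells, against 0.5996, 1.68 and 74.1 CPM in GFP+EpCAM+ cells (fitted log2 difference of 2.80, SE 1.63, edgeR adjusted p = 0.285). A single CD45+ cell gave 98.0% of the Cdc6 counts of mouse 2, and a single cell 84.3% and 99.5% of the Mcm3 counts of mice 1 and 3. Medians were 0.40 over the G1/S members, which ran from -1.03 to 1.52 over the alternatives, -3.48 over the G2/M members and 0.52 over all genes. With cells counted alike the G2/M median was -0.21. The comparisons share samples, so their values are not independent of each other.

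In GFP+ cells of metastases, Mcm5 had 72.5, 25.4 and 46.1 CPM in peritoneum, 21.1 and 40.7 CPM in kidney, 91.9 and 241 CPM in liver and 125 and 60.2 CPM in spleen, against 4.604, 188 and 103 CPM in the primary tumour. Mcm6 had 282, 381 and 258 CPM in peritoneum, 239 and 117 CPM in kidney, 1094 and 209 CPM in liver and 558 and 166 CPM in spleen, against 137, 189 and 383 CPM in the primary tumour. Pcna had 158, 163 and 57.04 CPM in peritoneum, 137 and 49.6 CPM in kidney, 32.6 and 44.8 CPM in liver and 97.8 and 56.03 CPM in spleen, against 102, 124 and 116 CPM in the primary tumour. Pcna in liver and spleen lay below every primary sum, and all other sums of these 3 genes overlapped with those of the primary tumour. Of the liver Mcm6 counts of mouse 2, 94.4% came from 1 cell. Ccne1 had 34.4, 14.8 and 6.92 CPM in peritoneum, 85.04 and 21.3 CPM in kidney, 36.3 and 7.47 CPM in liver and 46.95 and 1.401 CPM in spleen, against 0.992, 9.39 and 31.2 CPM in the primary tumour. Ccne2 had 47.7, 62.6 and 16.8 CPM in peritoneum, 10.5 and 0.821 CPM in kidney, 0.552 and 5.601 CPM in liver and 9.56 and 8.92 CPM in spleen, against 0.549, 0.424 and 27.3 CPM in the primary tumour. Tk1 had 102, 115 and 188 CPM in peritoneum, 96.2 and 70.1 CPM in kidney, 4.92 and 16.8 CPM in liver and 71.8 and 25.9 CPM in spleen, against 25.4, 137 and 90.04 CPM in the primary tumour. The cyclin E genes overlapped between every site and the primary tumour, with Ccne2 at 3 counts in liver of mouse 3. Rrm2 had 158, 4.33 and 83.7 CPM in peritoneum, 94.6 and 26.1 CPM in kidney, 0.502 and 29.9 CPM in liver and 91.3 and 31.1 CPM in spleen, against 72.4, 63.1 and 131 CPM in the primary tumour. Both liver sums of Tk1 and Rrm2 lay below every primary sum.

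Of the G2/M members, Mki67 had 319.7, 44.8 and 241 CPM in peritoneum, 29.6 and 57.1 CPM in kidney, 41.5 and 65.3 CPM in liver and 216 and 106 CPM in spleen, against 51.4, 129 and 213 CPM in the primary tumour. Top2a had 111, 141 and 136 CPM in peritoneum, 107 and 126 CPM in kidney, 8.23 and 33.6 CPM in liver and 239 and 31.7 CPM in spleen, against 28.3, 82.8 and 98.7 CPM in the primary tumour. Every Top2a sum of peritoneum and kidney lay above every primary sum. Cdk1 had 64.3, 60.4 and 51.1 CPM in peritoneum, 90.3 and 73.5 CPM in kidney, 23.1 and 5.601 CPM in liver and 48.1 and 6.05 CPM in spleen, against 77.5, 24.3 and 47.2 CPM in the primary tumour. Ccnb1 had 45.01, 36.8 and 196 CPM in peritoneum, 23.4 and 63.5 CPM in kidney, 0.201 and 5.601 CPM in liver and 103 and 9.23 CPM in spleen, against 44.01, 1.51 and 53.7 CPM in the primary tumour. Cdc20 had 178, 81.9 and 369 CPM in peritoneum, 55.5 and 105 CPM in kidney, 1.56 and 35.5 CPM in liver and 156 and 99.001 CPM in spleen, against 81.3, 1.55 and 113 CPM in the primary tumour. The liver sums of Cdk1 lay below every primary sum, whereas those of Ccnb1 and Cdc20 overlapped with it, the primary sums of mouse 2 being 1.51 and 1.55 CPM. The liver values of Cdk1 and Ccnb1 in mouse 3 stand for 3 counts each. Ube2c had 136, 321 and 574 CPM in peritoneum, 801 and 572 CPM in kidney, 10.2 and 16.8 CPM in liver and 266 and 32.2 CPM in spleen, against 109.5, 95.03 and 239.5 CPM in the primary tumour. It was high in both kidney sums, low in both liver sums, and overlapped with the primary tumour in spleen.

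Metastases were tested in the same way over 21988 genes, and again all 40 members passed the filter on low counts. Between liver metastases and the primary tumour 0 members passed edgeR's adjusted threshold, where 0.0136% of all genes did. At an unadjusted p of 0.05, 19 members were lower and none higher in liver (14.2% of all genes passed), 14 of them G2/M members. DESeq2 called 10 members lower (7.35% of 15923 genes): Tk1 and the G2/M members Aurkb, Birc5, Ccna2, Ccnb1, Ccnb2, Cenpa, Hmmr, Nusap1 and Ube2c. The limma test called 0 members (0.00455% of all genes). With a block for the mouse edgeR called Aurkb (log2 difference -8.13, adjusted p = 0.0030), Birc5 (-4.27, adjusted p = 0.0478) and Ube2c (-5.24, adjusted p = 0.0248) lower. The share of all genes called in that fit is not given here, and over the alternatives 0 to 1171 of all genes were called in liver. In 14 members (35%) both liver sums lay below every primary sum, as in 15.7% of all genes. Medians were -2.22 over the G1/S and -3.48 over the G2/M members, and -0.61 over all genes. With cells counted alike the medians were -0.07 over both sets. By role, the medians in the sums were -1.36 over the licensing and fork genes (10 of 11 negative), -3.92 over the 4 nucleotide enzymes, -3.48 over the 7 kinases and cyclins, -3.44 over the 6 checkpoint and anaphase genes, -3.81 over the 4 centromere genes and -3.58 over the 6 spindle genes, all members of these last lists being negative.

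Aurkb had 1.05 and 3.73 CPM in liver, against 39.6, 217 and 229 CPM in the primary tumour (fitted log2 difference of -7.47, SE 1.92, edgeR adjusted p = 0.152; lower in 2 of 2 mice). Ccnb1 had a fitted log2 difference of -5.21, SE 2.06, edgeR adjusted p = 0.266. In the liver sum of mouse 3, 5.60 CPM stands for 3 counts, so its values of Aurkb and Ccnb1 rest on 3 counts or fewer. Birc5 had 12.8 and 54.1 CPM in liver, against 357, 179.9 and 329.8 CPM in the primary tumour (fitted log2 difference of -4.23, SE 1.39, edgeR adjusted p = 0.214; lower in 2 of 2 mice). Ube2c had a fitted log2 difference of -4.49, SE 1.51, edgeR adjusted p = 0.217. The highest liver differences were those of Mcm6 (fitted log2 difference of 0.81, SE 1.18, edgeR adjusted p = 0.719) and Ccne1 (fitted log2 difference of -0.14, SE 1.64, edgeR adjusted p = 0.973). Without mouse 1 of the primary tumour and peritoneum, edgeR called Aurkb lower in liver (log2 difference -7.91, adjusted p = 0.0144). The share of all genes called in that setting is likewise not given here. Gins2, a subunit of the GINS complex of the fork, had 0 counts in liver of mouse 3, which allows up to 5.60 CPM, and 77.2 CPM in mouse 2. Liver cells had a median of 65672 counts, against 1614521 counts in GFP+ primary cells, and their 12 fibroblast genes summed to 945 and 5996 CPM in liver, against 3199 to 18067 CPM in the primary tumour; the part of depth and of these markers in the differences was not tested.

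Between kidney metastases and the primary tumour 0 members passed edgeR's adjusted threshold (0% of all genes) and 1 passed an unadjusted p of 0.05 (6.01% of all genes). DESeq2 (1.41% of 15504 genes) and limma (0% of all genes) called 0 members. The 1 member was Cenpe, with 1026 and 235 CPM in kidney, against 227, 65.9 and 38.1 CPM in the primary tumour (fitted log2 difference of 2.97, SE 1.25, edgeR adjusted p = 0.626; higher in 2 of 2 mice). Ube2c had a fitted log2 difference of 2.02, SE 1.21, edgeR adjusted p = 0.943 in kidney, and at the other end Cdc6 had 21.9 and 27.2 CPM in kidney, against 43.8, 51.2 and 162 CPM in the primary tumour (fitted log2 difference of -2.20, SE 1.52, edgeR adjusted p = 1). Mcm5 was next (fitted log2 difference of -2.18, SE 1.52, edgeR adjusted p = 1). Of the Cenpe counts in kidney, 79.5% in mouse 2 and 90.6% in mouse 3 came from 1 cell each. Medians were -0.54 over the G1/S and -0.13 over the G2/M members, and -0.10 over all genes, and over the alternatives they ran from -1.04 to 0.73 and from -0.88 to 0.82.

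Between peritoneum metastases and the primary tumour 0 members passed edgeR's adjusted threshold, where 0.0091% of all genes did, and 0 passed an unadjusted p of 0.05, where 6.1% of all genes did. DESeq2 (1.19% of 13839 genes) and limma (0% of all genes) called 0 members. The highest differences were those of Ccne2 (fitted log2 difference of 1.47, SE 1.56, edgeR adjusted p = 1) and Cdc20 (fitted log2 difference of 0.99, SE 1.26, edgeR adjusted p = 1; higher in 3 of 3 mice). The lowest were those of Mcm5 (fitted log2 difference of -1.90, SE 1.29, edgeR adjusted p = 1) and of Ttk, a kinase of the spindle checkpoint, with 2.48, 0.797 and 9.37 CPM in peritoneum, against 0.874, 0.549 and 21.8 CPM in the primary tumour (fitted log2 difference of -1.93, SE 1.59, edgeR adjusted p = 1). Medians were -0.15 over the G1/S members, which ran from -0.93 to 0.96 over the alternatives, 0.23 over the G2/M members, which stayed positive at 0.22 to 0.98, and 0.08 over all genes.

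Between spleen metastases and the primary tumour 0 members passed edgeR's adjusted threshold (0% of all genes) and 0 an unadjusted p of 0.05 (6.16% of all genes). DESeq2 (1.46% of 14248 genes) and limma (0% of all genes) called 0 members. The highest differences were those of Nusap1, with 179 and 3.77 CPM in spleen, against 46.7, 39.2 and 36.1 CPM in the primary tumour (fitted log2 difference of 1.57, SE 1.46, edgeR adjusted p = 0.999), and Mcm4, a helicase subunit, with 213 and 842 CPM in spleen, against 4.699, 142 and 176 CPM in the primary tumour (fitted log2 difference of 1.48, SE 1.28, edgeR adjusted p = 0.999). The lowest was that of Mad2l1, a checkpoint protein that holds back Cdc20, with 35.1 and 42.3 CPM in spleen, against 10.1, 174 and 109 CPM in the primary tumour (fitted log2 difference of -1.72, SE 1.45, edgeR adjusted p = 0.999), followed by Cdc6, with 32.1 and 97.3 CPM in spleen, against 43.8, 51.2 and 162 CPM in the primary tumour (fitted log2 difference of -1.09, SE 1.44, edgeR adjusted p = 0.999). Medians were -0.20 over the G1/S and -0.04 over the G2/M members, and 0.01 over all genes. Without mouse 2 the G2/M median was -2.06 and without mouse 3 it was 1.69, so that each mouse decided it. The 12 fibroblast genes summed to 19578 and 21650 CPM in spleen, against 3199 to 18067 CPM in the primary tumour; their part was not tested. The higher share of spleen cells with many members was thus not matched by a member past the threshold in the sums.

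For the mean of the 4 sites against the primary tumour 0 members passed edgeR's adjusted threshold, where 1.5% of all genes did. Of the members, Aurkb alone passed an unadjusted p of 0.05 (9.2% of all genes passed), with a fitted log2 difference of -2.07, SE 0.90, edgeR adjusted p = 0.377. DESeq2 (1.62% of 14248 genes) and limma (0% of all genes) called 0 members. Cdc6 was next lowest (fitted log2 difference of -1.68, SE 0.95, edgeR adjusted p = 0.646). The highest were Ccne1 (fitted log2 difference of 0.49, SE 1.23, edgeR adjusted p = 0.938) and Aurka, the centrosome kinase, which had 89.1, 40.8 and 216 CPM in peritoneum, 60.99 and 117 CPM in kidney, 72.7 and 3.73 CPM in liver and 120.4 and 37.9 CPM in spleen, against 2.72, 1.47 and 111 CPM in the primary tumour (fitted log2 difference of 0.28, SE 1.11, edgeR adjusted p = 0.963). Medians were -0.84 over the G1/S and -0.77 over the G2/M members, and -0.23 over all genes, but with cells counted alike they were 0.45 and 0.56, the other direction. Sites were also set against each other: 0 members passed in any of the 6 pairs, as did 0 of all genes. At an unadjusted p of 0.05, 22 members of 40 passed for peritoneum against liver, 12 for kidney against liver and 17 for liver against spleen. Of all 21988 genes 2468, 2354 and 2704 passed in these pairs. The median log2 differences of the members were 3.42, 2.76 and -3.01, and those of all genes 0.42, 0.31 and -0.42. In the other 3 pairs 0 or 1 members passed an unadjusted p, where 1137 to 1395 of all genes did.

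**Figure D5:**
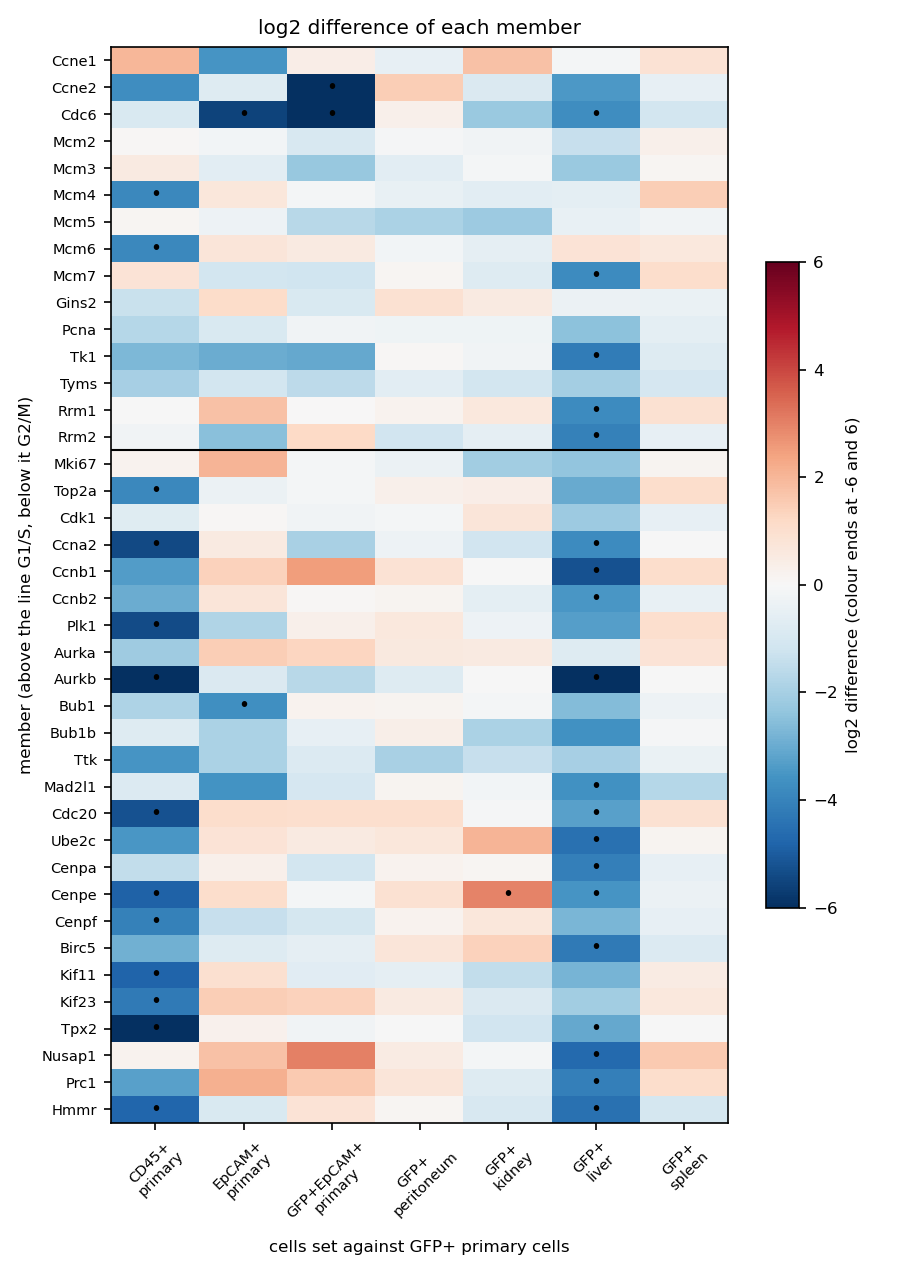
Log2 difference (colour) of each of the 40 members in 7 groups against GFP+ primary cells, with G1/S members above the line and G2/M members below it. Dots mark an unadjusted edgeR p under 0.05, and no member passed the adjusted threshold. The CD45+ column holds 13 dots and the liver column 19, all of them lower.

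Across cells the members moved together by degrees. Over 76 GFP+ primary cells the highest Spearman rho between members on CPM were 0.72 for Mki67 with Birc5, 0.70 for Ccna2 with Ccnb1, 0.69 for Cenpa, the centromeric histone, with Birc5, 0.69 for Top2a with Prc1, and 0.67 for Mki67 with Cenpe. The sum of the G1/S and the sum of the G2/M members had a rho of 0.56 in CD45+ (56 cells), 0.27 in EpCAM+ (25 cells) and 0.19 in GFP+EpCAM+ cells (31 cells), against 0.50 in GFP+ primary cells. In metastases it was 0.46 in spleen (35 cells), 0.41 in liver (16 cells), 0.42 in kidney (44 cells) and 0.52 in peritoneum (85 cells). The median rho between G2/M members ran from 0.25 in CD45+ to 0.54 in GFP+EpCAM+ cells. Against the summed other G2/M members, Birc5 had the highest rho in GFP+ primary cells (0.80), followed by Mki67 (0.64) and Ccnb2 (0.61), a B-type cyclin, and Ccne2 the lowest (0.04). Cells of a pair of genes share their library and depth, and the G2/M sum had a rho of -0.17 with depth in GFP+ primary and -0.52 in CD45+ cells.

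Further members of the CD45+ and GFP+ sorts differed in whether the sums overlapped. Cenpf, a kinetochore protein, ran from 2.53 to 17.5 CPM in CD45+ cells, against 16.4 to 147 CPM in GFP+ primary cells. Kif11, the kinesin that pushes spindle poles apart, had 4.07, 2.45 and 1.1 CPM in CD45+ cells, against 4.604, 97.8 and 58.9 CPM in GFP+ cells, and Plk1, the Polo kinase, had 1.44, 0.6405 and 0.605 CPM in CD45+ cells, against 31.2, 5.03 and 56.1 CPM in GFP+ cells. Both lay lower in every CD45+ sum. Hmmr, a spindle and hyaluronan-binding protein, had 4.93, 2.67 and 0.605 CPM in CD45+ cells, against 137, 0.508 and 68.6 CPM in GFP+ cells. Bub1b, a checkpoint protein, had 2.73, 47.3 and 1.1 CPM in CD45+ cells, against 2.86, 18.6 and 74.1 CPM in GFP+ cells. Hmmr and Bub1b overlapped between the groups. Kif23 had 3.93, 1.504 and 1.21 CPM in CD45+ cells, 266, 51.99 and 12.7 CPM in EpCAM+ cells and 66.6, 4.41 and 154 CPM in GFP+EpCAM+ cells, against 70.1, 6.57 and 38.9 CPM in GFP+ cells. Cenpa had 18.001, 2.76 and 42.1 CPM in CD45+ cells, 0.116, 93.8 and 157 CPM in EpCAM+ cells and 13.9, 8.92 and 50.9 CPM in GFP+EpCAM+ cells, against 115, 8.07 and 83.4 CPM in GFP+ cells, and Ccnb2 had 1.87, 14.7 and 1.04 CPM in CD45+ cells, 1.43, 13.6 and 263 CPM in EpCAM+ cells and 87.6, 6.24 and 42.5 CPM in GFP+EpCAM+ cells, against 56.9, 47.9 and 66.1 CPM in GFP+ cells. All CD45+ sums of Kif23 and Ccnb2 lay below all GFP+ sums, and those of Cenpa overlapped. Tyms, thymidylate synthase, had 65.7, 46.97 and 23.997 CPM in CD45+ cells, against 147, 145 and 193 CPM in GFP+ cells, and the table also holds Tyms-ps, a pseudogene that may share its reads. Rrm1, the large subunit of ribonucleotide reductase, had 14.3, 95.5 and 2.2 CPM in CD45+ cells, against 3.47, 54.98 and 61.1 CPM in GFP+ cells, and Mcm2 had 1.197, 86.3 and 134 CPM in CD45+ cells, against 4.79, 63.1 and 169 CPM in GFP+ cells.

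Cell cycle genes outside the set were read from 4 further lists. None of 20 other S-phase genes, 28 other mitosis genes and 19 regulators passed edgeR's adjusted threshold in any of the 10 comparisons. In CD45+ against GFP+ cells 16 of the S-phase genes (median log2 difference -1.68), 22 of the mitosis genes (-1.60) and 15 of the regulators (-1.12) were negative. The median of all genes was 0.20. Of the 3 lists 5, 9 and 4 genes had an unadjusted p under 0.05, as did 17.3% of all genes. The largest differences there were those of Dbf4, the partner of Cdc7 kinase (-6.44, adjusted p = 0.0674), Gtse1 (-6.27, adjusted p = 0.146) and Mybl2, a MuvB partner (-4.83, adjusted p = 0.2). In liver against the primary tumour 20 of 20, 27 of 28 and 17 of 19 were negative (medians -2.52, -3.34 and -2.24), where the median of all genes was -0.61. There 5, 14 and 2 had an unadjusted p under 0.05, as did 14.2% of all genes. The largest differences were those of Cdc45 (-5.08), Gtse1 (-6.32) and Wee1 (-4.41). In kidney 18 of 19 regulators were negative (median -1.40, and -0.10 over all genes). In the other comparisons the largest differences of the 3 lists were those of Cdc45 (-4.89), Nuf2 (-4.29) and Cdc25a (-5.44) in EpCAM+ against GFP+ cells, Cdc7 (-5.67), Gtse1 (-3.46) and Lin9 (-6.41) in GFP+EpCAM+ against GFP+ cells, Cdc7 (7.21), Nuf2 (-4.90) and Cdk2 (-4.35) in EpCAM+ against GFP+EpCAM+ cells, and Dbf4 (-5.46), Ect2 (-6.76) and Wee1 (5.48) in CD45+ against GFP+EpCAM+ cells. Against the primary tumour they were those of Gins3 (-2.33), Espl1 (2.39) and Cdc25a (-2.38) in peritoneum, Ect2 (-3.02, other mitosis genes) and Cdc25a (-3.39, regulators) in kidney, Cdt1 (1.75), Kif4 (2.95) and E2f7 (2.33) in spleen, and Gins3 (-2.21), Gtse1 (-1.96) and Cdc25a (-2.76) in the mean of the 4 sites.

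Of 13 inhibitors, Cdkn2b, which encodes the p15 inhibitor of the cyclin D kinases, fell in CD45+ cells. It had 3.45, 1.699 and 1.32 CPM in CD45+ cells and 114, 41.6 and 149.7 CPM in GFP+EpCAM+ cells, against 592, 293 and 186 CPM in GFP+ cells. Its log2 difference in CD45+ cells was -7.43 (SE 1.53, edgeR adjusted p = 0.0141) against GFP+ cells and -6.12 (SE 1.44, adjusted p = 0.0287) against GFP+EpCAM+ cells, with no overlap. Without any 1 of the 3 mice it did not pass in either comparison (adjusted p up to 0.238 and 0.253). It passed in 10 of 13 alternatives against GFP+ cells and in 7 of 13 against GFP+EpCAM+ cells, where it also missed without the deepest cell of each sum (adjusted p = 0.0665), with cells counted alike and a pseudocount of 1 (limma adjusted p = 0.081) and in a fit of these 2 groups only (adjusted p = 0.112). Gadd45a, a stress-induced inhibitor of Cdk1, fell in the mean of the 4 sites (log2 difference -3.52, SE 1.00, edgeR adjusted p = 0.0457). It had 3.87, 28.3 and 17.4 CPM in peritoneum, 35.3 and 156 CPM in kidney, 0.853 and 11.2 CPM in liver and 0.988 and 15.02 CPM in spleen, against 119.9, 143 and 88.3 CPM in the primary tumour. Kidney overlapped with the primary tumour, and with cells counted alike the difference of the mean was near 0 (0.033 with a pseudocount of 0.1, adjusted p = 1.0). It passed in 6 of 12 alternatives and not without mouse 2 or mouse 3.

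The largest inhibitor differences in the other comparisons were those of Cdkn1c, which encodes p57, in EpCAM+ (-4.92) and GFP+EpCAM+ (-8.09) against GFP+ cells, in EpCAM+ against GFP+EpCAM+ cells (3.17) and in kidney (-3.39), of Gadd45a in peritoneum (-2.97) and spleen (-4.66), and of Cdkn2d in liver (-7.27), with adjusted p of 0.214 or more. Cdkn1a, which encodes p21, had 187, 826 and 240.02 CPM in CD45+ cells, against 11.1, 0.241 and 21.2 CPM in GFP+ cells (fitted log2 difference of 5.46, SE 1.82, edgeR adjusted p = 0.139; higher in 3 of 3 mice). Cdkn2a, the p16 and Arf locus, had 0.6703, 0.139 and 0.715 CPM in CD45+ cells, against 0.401, 54.8 and 20.8 CPM in GFP+ cells (fitted log2 difference of -5.90, SE 2.12, edgeR adjusted p = 0.164). Neither passed the threshold. Of the transcription factors of the cycle, Foxm1 had 5.12, 1.48 and 1.59 CPM in CD45+ cells, against 3.45, 53.2 and 48.8 CPM in GFP+ cells, and E2f1 had 1.77, 58.6 and 1.29 CPM in CD45+ cells, against 23.2, 30.3 and 102 CPM in GFP+ cells. Ccnd1, cyclin D1, had 6.798, 68.03 and 739 CPM in CD45+ cells, against 162, 103 and 76.4 CPM in GFP+ cells, and 294 and 269 CPM in liver. The liver sums of Ccnd1 lay above every primary sum (fitted log2 difference of 0.66, SE 1.24, edgeR adjusted p = 0.785).

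The 6 bulk libraries, with 1 or 2 per sort, give the same sets without the step to single cells and with no test. The G2/M members summed to 1670 CPM in bulk CD45+ cells of mouse 1, against 2032 and 2385 CPM in bulk GFP+ primary cells of mice 1 and 2, and the G1/S members to 635 CPM, against 835 and 1194 CPM. Bulk GFP+ peritoneum of mouse 1 had 4299 CPM of G2/M and 2023 CPM of G1/S members, above both bulk primary libraries. The GFP-negative bulk library of peritoneum had 2329 and 1040 CPM. In bulk CD45+ cells Mki67 alone gave 504 CPM of the G2/M sum. That library held 121118 counts and had Ptprc at 49.5 CPM. The CD45+ single-cell sum of mouse 1 had 378 CPM of Ptprc and 192 CPM of G2/M members. The GFP-negative bulk library of the primary tumour held 8520 counts, with 2 G1/S and 5 G2/M members detected, too few to describe.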

How the data were processed

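RNA and DNA of sorted single cells were read from deposited tables. The RNA values are estimated counts per gene, deposited by the authors (97.4% whole numbers), and were rounded after summing over cells. The DNA values are counts per genomic bin, deposited by the authors, and served only to find duplicate libraries (chi-square per degree of freedom 0.735 and 0.854, against 1.61 for the closest other pair; the RNA of the pairs gave 5.79 and 1.72). Reads were split into exonic and non-exonic reads, per the labels' series design, so a genomic read in an exon would count as RNA. The submitters' processing notes name STAR, kallisto, Bowtie 1.0 and mm9, with no role for each. Of 24520 rows, the 92 of ERCC spike-ins, with 0.000348% of the counts, were dropped, as were 4 that repeated a symbol.

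Counts were summed per mouse and group, the mouse being the replicate, and tested with edgeR 4.0.16 (quasi-likelihood, TMM, no block) in a primary fit of 19703 and a site fit of 21988 genes. DESeq2 1.42.0, limma 3.58.1 on means over cells of log2(CPM + 1), a mouse block, stricter filters and leaving out each mouse were alternatives. The scripts ran in R 4.3.3 and Python 3.11.15 with numpy 2.4.6, pandas 2.3.3 and scipy 1.17.1, and the fits were tested on simulated data. Samples of the same number come from the same mouse; deviations from the group means had a median r of 0.0619 (18 pairs, lowest 0.0208) in the primary fit and 0.084 (21 pairs, lowest -0.3259) in the site fit, against -0.0429 and -0.0601 between mice. All 40 members are named; every mouse's value is given for 13 of them, and the 2 highest and 2 lowest differences of each comparison are named. The members, lists and tests were chosen with earlier results of these data known. Limits for counts of 0 are 3 counts or cells, and cover counting error only, since the reads carry no molecular identifiers. For the further lists, 1 gene is not reported here by name.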

Additional observations from a re-analysis of the deposited data

How the results depend on the processing

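Counts of members called depended on the tool. In place of 0 with edgeR, DESeq2 called 7 members in CD45+ against GFP+ cells, 1 in EpCAM+ against GFP+, 2 in GFP+EpCAM+ against GFP+, 2 in EpCAM+ against GFP+EpCAM+, 12 in CD45+ against GFP+EpCAM+ cells and 10 in liver against the primary tumour. These were 17.5%, 2.5%, 5%, 5%, 30% and 25% of the members. Of all genes with an adjusted p, DESeq2 called 11.2%, 7.58%, 6.65%, 8.38%, 19.5% and 7.35%. The 3 comparisons with 1 or 2 members called were thus below the share of all genes. In CD45+ against GFP+ cells limma called 4 with a pseudocount of 1 (3.95% of all genes) and 4 with 0.1. In liver the stricter cell filter called 1 member (Aurkb), the replicate block for the mouse called 3, and leaving out a replicate gave 0 to 1. Over the alternatives 0 to 1171 of all genes were called in liver. The replicate block left every other comparison at 0 members called. The number of members whose difference had the other sign under some alternative reached 10 in CD45+ against GFP+ cells, 16 in liver, 25 in kidney and 30 in the mean of the 4 sites, and no member was called in opposite directions. With cells counted alike Gadd45a in the mean of the 4 sites had a log2 difference of 0.033 with a pseudocount of 0.1, the other direction, and 6 of its 12 alternatives did not pass. The cause was not tested.

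Over all genes the log2 differences had a median of 0.20 in CD45+ against GFP+ cells with TMM, 0.37 without it and 0.94 with DESeq2, and -0.61, 0.22 and -0.11 in liver. The number of all genes called ranged from 19 to 1915 in CD45+ against GFP+ cells (161 with edgeR), from 13 to 3487 in CD45+ against GFP+EpCAM+ cells (333), from 0 to 1171 in liver (3) and from 0 to 440 in the mean of the 4 sites (329). The G2/M level of liver was 425 CPM in the sums and 1179 CPM as the mean over cells. Depth limits what can be said of liver, with 9 cells of 50000 counts or more. Without the top cell of each sum, chosen after seeing the data, the mean G2/M level was 230.2 CPM in CD45+, 378 CPM in liver and 1820 CPM in kidney, against 1317 CPM in GFP+ primary cells.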

Other observations

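Genes outside the set that followed it over cells were sought after the values had been seen. Over 76 GFP+ primary cells, the genes whose CPM had the highest Spearman rho with the summed G2/M members were Hmgb2, a chromatin protein (0.79), Tacc3, a spindle protein (0.67), Pttg1, which encodes securin (0.66), Ppil1 (0.64) and Racgap1, a cytokinesis protein (0.63). The median rho of all 3685 genes compared (at least 20 CPM and 20 cells) was 0.10. Of the 50 highest, 9 were in the list of other mitosis genes, 1 in the list of other S-phase genes and 40 in none of the lists. Hmgb2 had a rho of 0.79 in peritoneum, 0.78 in kidney and 0.82 in spleen, and 0.35 in CD45+ cells, whereas Ppil1 had 0.10 in peritoneum and 0.11 in kidney. The lowest values in GFP+ primary cells were those of Malat1 and Fos, both -0.38. All genes of a cell share its library and depth.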
